A study of Mus musculus with 6 samples.

Results

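The proteasome is the barrel-shaped protease that degrades ubiquitin-tagged proteins in the cytosol and nucleus. Its subunit genes were described here in mammary tumours of mice. The members were all genes of the constitutive complex with a Psma, Psmb, Psmc or Psmd symbol, leaving out the inducible immunoproteasome subunits Psmb8, Psmb9 and Psmb10. There were 35 such genes among the 12393 genes named on the array. They had 64 probe sets, and for each gene the probe set of highest mean level over the 6 arrays was used. All 35 members were tested, since no filter on low values was set.

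Tumours came from adult F1 females of 2 outcrosses to the PyMT strain, which carries the polyomavirus middle T antigen as a transgene that induces mammary tumours. The other parent was AKR/J for 3 samples (AKR F1 tumours) and DBA/2J for the other 3 samples (DBA F1 tumours), so the transgene is shared by all. The strain background of the PyMT parent and the promoter of the transgene are not given in the sources used here. The animals were killed under Avertin anaesthesia, the tumours were snap frozen, and RNA of each sample went onto 1 Affymetrix array. The study was set up to find baseline expression differences between these genotypes. The sample titles carry a different number for each sample, but nothing in the labels says that these numbers stand for different animals. The p-values then reflect only the spread among these samples, which may be technical. The number of arrays limits the precision, and all values are log2 values as deposited.

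The core particle of the proteasome is a stack of rings. The outer alpha rings form a gate, and the inner beta rings hold the proteolytic sites on the subunits encoded by Psmb5, Psmb6 and Psmb7. The regulatory particle caps the core: its base is a ring of ATPases that unfolds substrates, and its lid removes the ubiquitin chain. When proteasome activity is limiting, cells are known to raise the subunit genes together through the transcription factor encoded by Nfe2l1, and interferon is known to replace the catalytic subunits with those of the immunoproteasome.

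As deposited, most proteasome subunit genes lay lower in AKR F1 than in DBA F1 tumours, by small amounts. Of 35 genes, 30 lay lower in AKR F1 tumours (85.7%, against 45.4% of all probe sets), and the median log2 difference of AKR minus DBA was -0.33, against 0.049 over all probe sets. The differences ran from -0.88 for Psmd10 to 0.35 for Psmd3. After quantile normalization, which gives the 6 arrays the same distribution of values, 23 of the 35 genes lay lower in AKR F1 tumours (65.7%, against 45.0% of all probe sets), and their median was -0.068.

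No member passed limma's test at an adjusted p of 0.05, which 22 of 22626 probe sets did (0.0972%). The adjusted p of the members ran from 0.103 to 0.924 by limma. At an unadjusted p under 0.05 there were 15 members lower in AKR F1 tumours (42.9%, against 13.2% of all probe sets) and 0 higher (against 12.9%). The crosses were fully separated, with no overlap of their arrays, for 21 members lower in AKR F1 tumours (60%, against 15.8% of all probe sets) and for 2 members higher (against 23.4%). After quantile normalization the members at an unadjusted p under 0.05 were 7 lower in AKR F1 tumours (20%, against 10.7% of all probe sets) and 2 higher (against 11.8%). The 7 were Psma1, Psma2, Psma3, Psmc1, Psmd5, Psmd7 and Psmd10, each also among the 15 as deposited, and the 2 were Psmb6 and Psmd3. In bulk tumour RNA, fewer cells of a type and less RNA per cell cannot be told apart.

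The size of a difference went with the level of the probe set across the whole array. Of the members, 26 lay in the brightest decile of probe sets, from a mean of 10.10 upwards. In that decile the median difference over all probe sets was -0.21, 76.2% of probe sets lay lower in AKR F1 tumours, and 24.6% did so at an unadjusted p under 0.05. The 26 members there had a median of -0.30, 24 of them lay lower in AKR F1 tumours (92.3%), and 10 did so at an unadjusted p under 0.05 (38.5%). After quantile normalization the median of the decile was 0.018. The members outside it were Psma1, Psma8, Psmc1, Psmc4, Psmd5, Psmd7, Psmd9, Psmd10 and Psmd13.

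**Figure D1:**
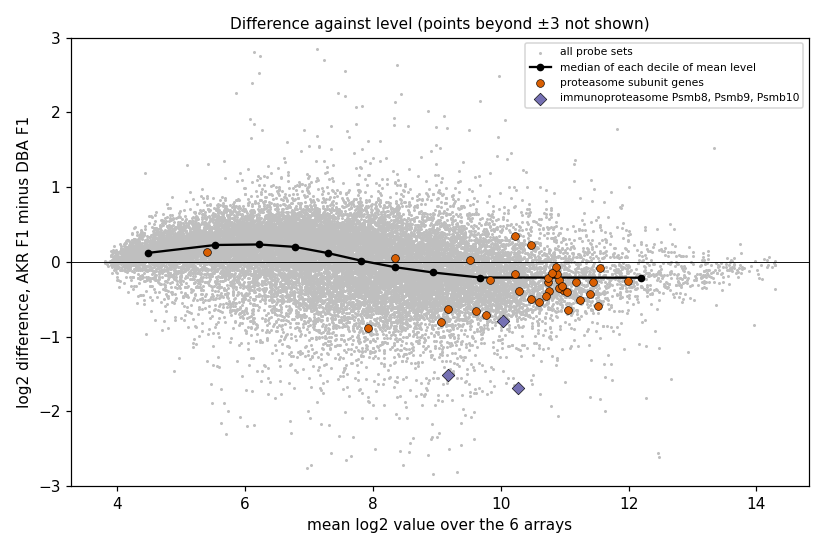
Log2 difference of AKR F1 minus DBA F1 tumours (y axis) against the mean log2 value over the 6 arrays (x axis), for all probe sets (grey), the 35 proteasome subunit genes (orange) and the 3 immunoproteasome genes (diamonds), with the median of each decile of level in black. Most subunit genes sit at the bright end, where the median of all probe sets is -0.21, and the immunoproteasome genes lie from -1.69 to -0.80.

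The arrays contributed unequally. AKR F1 replicate 2 gave the lowest of the 6 values for 28 of the 35 members, and DBA F1 replicate 3 gave the highest for 22. Relative to each member's mean over the 6 arrays, the median deviation was -0.028, -0.30 and -0.13 for the AKR replicates, against 0.17, 0.054 and 0.29 for the DBA replicates. So each AKR array lay below each DBA array, and AKR F1 replicate 1 and DBA F1 replicate 2 lay closest together. After quantile normalization these deviations were 0.0078, -0.018 and -0.10 for AKR, against 0.059, -0.0063 and 0.13 for DBA, and the crosses overlapped. Without AKR F1 replicate 2 the median difference of the members was -0.21 and 12 of them had an unadjusted p under 0.05 lower in AKR F1 tumours. Without DBA F1 replicate 3 the median was -0.29 and the number with such a p was 7. The shares of all probe sets at such a p are not given for these refits, so the counts have no background beside them.

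Values that stand beside this pattern are the spread of each array, RNA integrity and cell type markers. The SD over all probe sets was 1.76 on AKR F1 replicate 2, 1.90 and 1.91 on the other AKR arrays and 1.98 to 2.02 on the DBA arrays. The 3' minus 5' difference of the Gapdh control probe sets ran from 0.053 to 0.31 in AKR F1 and was 1.20, 0.12 and 0.75 in DBA F1 samples. It was thus highest on DBA F1 replicates 1 and 3, which held the highest value for 5 and 22 members. The mammary epithelial markers (10 of 10 measured) had a mean of 10.99 to 11.23 on the AKR and 10.59 to 10.89 on the DBA arrays. Of them 1 passed limma's test, higher in AKR F1 (0.0972% of all probe sets passed). At an unadjusted p under 0.05 there were 3 higher (against 12.9% of all probe sets) and 0 lower. After quantile normalization there were 5 higher (against 11.8%) and 0 lower. Their median difference was 0.15, or 0.35 after quantile normalization. Epcam lay at 12.78 to 13.17 on every array, so epithelial RNA was present in every sample. Of those markers Esr1, the oestrogen receptor gene, was dim at 5.39 to 6.49. Skeletal muscle markers (10 of 10 measured) averaged 8.35 to 9.74 in AKR F1 samples, whereas the DBA replicates gave 11.43, 6.50 and 6.43. Basal and smooth muscle markers (8 of 8 measured) had a median difference of -1.35, or -1.31 after quantile normalization. The list went both ways, with 6 genes lower and 2 higher in AKR F1 tumours as deposited. The 2 were the keratin genes Krt5 (0.99, or 1.17 after quantile normalization) and Krt14 (0.71, or 0.90 after quantile normalization). In both settings 3 of the 8 markers (Acta2, Myh11 and Mylk) lay lower in AKR F1 tumours at an unadjusted p under 0.05. Of all probe sets 13.2% did so as deposited and 10.7% after quantile normalization. The crosses did not overlap for these 3 as deposited (against 15.8% of all probe sets lower without overlap). The 8 markers averaged 8.36, 8.56 and 8.21 in AKR F1 samples, whereas the DBA replicates gave 8.26, 9.59 and 9.82, so DBA F1 replicate 1 lay among the AKR arrays. T and NK cell markers (8 of 9 measured) went the other way, with 4 higher in AKR F1 tumours at an unadjusted p under 0.05 (against 12.9% of all probe sets). After quantile normalization 3 did so (against 11.8%). From the second to the fifth decile of level, 15.2% to 21.3% of all probe sets lay higher at such a p as deposited. The T and NK cell markers averaged 7.02 to 7.36 on the AKR and 6.78 to 7.12 on the DBA arrays. Macrophage markers (9 of 9 measured) averaged 9.14 to 10.12 on the AKR and 9.55 to 10.26 on the DBA arrays. Of B and plasma cell, fibroblast, adipocyte and endothelial markers, 1 of 6, 1 of 8, 0 of 6 and 1 of 7 measured genes lay lower in AKR F1 tumours at an unadjusted p under 0.05 (against 13.2% of all probe sets), and 1, 0, 0 and 2 higher (against 12.9%). After quantile normalization 1, 1, 0 and 1 of these markers lay lower at such a p, and 0, 0, 0 and 2 higher. Their part in the differences of the proteasome genes was not tested.

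**Figure D2:**
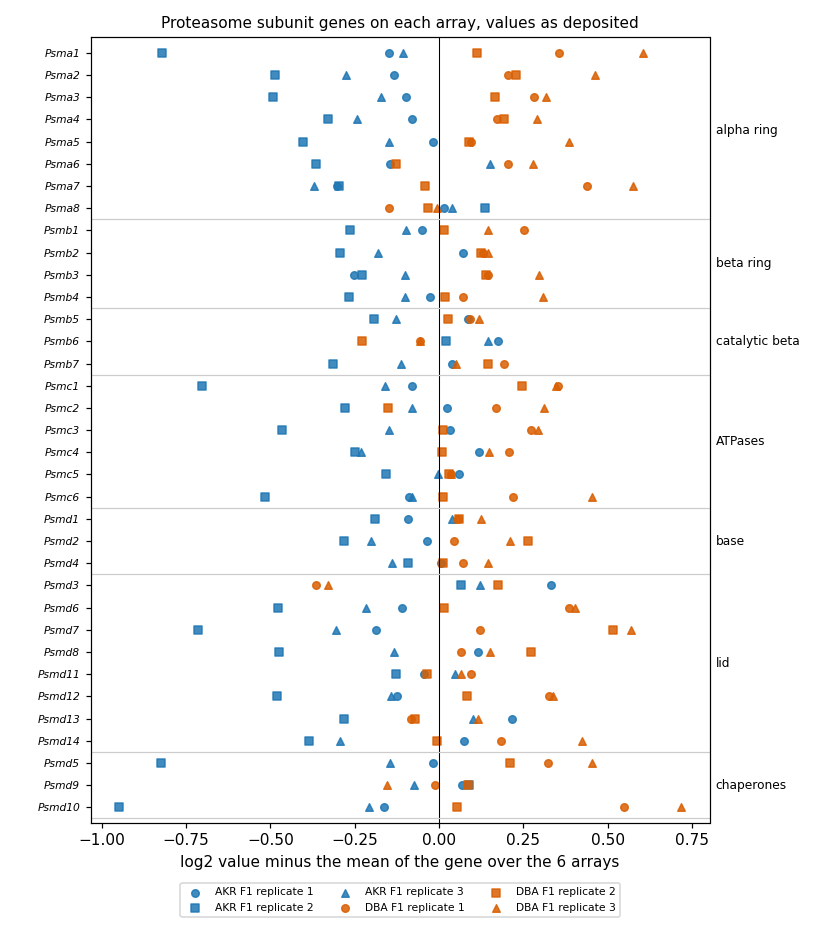
Each of the 35 genes (rows, grouped by role) on the 6 arrays, as the log2 value minus the gene's mean over the 6 arrays (x axis), AKR F1 in blue and DBA F1 in orange, with 1 symbol shape per replicate. AKR F1 replicate 2 (blue squares) is the lowest array for 28 genes and DBA F1 replicate 3 (orange triangles) the highest for 22.

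The promoters of the members were searched for short motifs in the 250 bases before the start of the gene, as a description. Whether promoter motifs have a part in the differences was not tested. RefSeq promoters of the mouse assembly GRCm38.p6 matched 28 of the 35 members, with 30 starts. The core of the antioxidant response element, the kind of site that Nfe2l1 protein binds, was searched as TGACNNNGC on both strands. It was present for 5 of 28 members (17.9%), which were Psmb5, Psmb6, Psmc6, Psmd9 and Psmd12, against 11.5% of the 27025 genes in the table and 10.2% of single promoters. The core of ETS factor sites, CCGGAAG on both strands, was present for 9 of 28 members (32.1%), against 7.83% of all genes and 6.91% of single promoters. A CCAAT box, CCAAT on both strands, was present for 11 of 28 members (39.3%), against 37.5% of all genes and 33.8% of single promoters. Matches to the 3 motifs did not overlap each other in these promoters. The ETS and CCAAT motifs were chosen after the values were seen, and a match describes letters, not a bound site.

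For the members with the smallest p that hold the antioxidant response core upstream, the match is in capitals below with up to 60 bases on each side, 5' to 3' on the strand of the gene. The Psmd12 stretch is chr11:107479278-107479349 (+ strand), the Psmc6 stretch chr14:45329574-45329665 (+ strand) and the Psmb6 stretch chr11:70525288-70525356 (+ strand), all in GRCm38.p6. The match starts 247 bases before the start of Psmd12, 227 before that of Psmc6 and 9 before that of Psmb6.
Psmd12: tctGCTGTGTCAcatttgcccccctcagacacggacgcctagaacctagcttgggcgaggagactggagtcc
Psmc6: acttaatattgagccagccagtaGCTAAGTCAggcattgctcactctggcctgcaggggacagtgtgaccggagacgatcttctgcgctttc
Psmb6: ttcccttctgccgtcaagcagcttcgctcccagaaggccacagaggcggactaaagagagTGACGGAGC

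The ETS core is shown in the same way, in capitals, for the 3 members with the smallest p that hold it, because its share among the members lay furthest above that of all genes. The Psmc1 stretch is chr12:100110114-100110201 (+ strand), the Psmd12 stretch chr11:107479451-107479527 (+ strand) and the Psmd6 stretch chr14:14120946-14121050 (- strand). The match starts 28 bases before the start of Psmc1, 17 before that of Psmd12 and 45 before that of Psmd6.
Psmc1: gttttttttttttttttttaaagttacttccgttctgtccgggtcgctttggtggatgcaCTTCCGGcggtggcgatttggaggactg
Psmd12: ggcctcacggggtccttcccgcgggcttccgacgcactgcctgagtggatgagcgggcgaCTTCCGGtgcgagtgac
Psmd6: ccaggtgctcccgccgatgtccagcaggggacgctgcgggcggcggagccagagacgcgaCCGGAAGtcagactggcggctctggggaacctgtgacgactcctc
The median difference of the 9 members with the ETS core was -0.35 and that of the 19 without it -0.38. For the antioxidant response core it was -0.16 for the 5 with and -0.38 for the 23 without, and for the CCAAT box -0.51 for the 11 with and -0.26 for the 17 without.

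The alpha ring encloses the core particle at both ends. Its 7 broadly expressed genes all lay lower in AKR F1 tumours as deposited, and none passed. At an unadjusted p under 0.05 there were 6 (against 13.2% of all probe sets and 24.6% of the brightest decile). After quantile normalization there were 3 (against 10.7% of all probe sets). The median over the 8 alpha genes was -0.47, and -0.20 after quantile normalization. Psma2 gave AKR readings of 11.38, 11.03 and 11.24 against 11.72, 11.74 and 11.98 for DBA. The crosses did not overlap, and the difference was -0.60 (SE 0.14, adjusted p = 0.104 by limma), or -0.36 after quantile normalization.

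Psma7 gave AKR readings of 10.75, 10.75 and 10.68 against 11.49, 11.01 and 11.63 for DBA. The AKR arrays lay close together, DBA F1 replicate 2 stood nearest to them, and the crosses did not overlap. The difference was -0.65 (SE 0.18, adjusted p = 0.118 by limma), and -0.39 after quantile normalization. A further Psma7 probe set gave -0.63. Psma4 gave AKR readings of 11.31, 11.06 and 11.15 against 11.56, 11.58 and 11.68 for DBA, a difference of -0.44 (-0.17 after quantile normalization). Psma3 gave AKR readings of 11.15, 10.75 and 11.07 against 11.53, 11.41 and 11.56 for DBA, a difference of -0.51 (-0.24 after quantile normalization). Neither gene overlapped between the crosses.

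Of the remaining alpha genes, Psma1 had the largest difference of the ring, -0.72 (SE 0.23, adjusted p = 0.141 by limma). It averaged 9.41 ± 0.40 in AKR F1 and 10.13 ± 0.25 in DBA F1 tumours (SD, n = 3 per cross). It was -0.49 without AKR F1 replicate 2 and -0.52 after quantile normalization. Psma5 differed by -0.38 and Psma6 by -0.24, the latter turning to 0.016 after quantile normalization. A further, slightly dimmer Psma6 probe set differed by -0.69 (adjusted p = 0.101 by limma). Psma8, the testis variant of an alpha subunit, averaged 5.46 ± 0.065 in AKR F1 and 5.34 ± 0.075 in DBA F1 tumours (SD, n = 3 per cross), in the second decile of level, and its difference of 0.13 turned to -0.032 after quantile normalization.

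The structural beta subunits, which build the inner rings without a proteolytic site, all lay lower in AKR F1 tumours as deposited, as did 76.2% of the brightest decile. The crosses did not overlap for any of the 4 (against 15.8% of all probe sets lower without overlap). At an unadjusted p under 0.05 there was 1 as deposited (against 13.2% of all probe sets) and 0 after quantile normalization (against 10.7%). Psmb3 gave AKR readings of 10.04, 10.06 and 10.19 against 10.43, 10.43 and 10.58 for DBA. The arrays of each cross lay close together, and the difference was -0.39 (SE 0.12, adjusted p = 0.128 by limma). Psmb1 (-0.28), Psmb2 (-0.27) and Psmb4 (-0.26) differed by less and had unadjusted p values of 0.065, 0.082 and 0.091 by limma. After quantile normalization Psmb3 differed by -0.14, Psmb1 by -0.0072, Psmb2 by -0.023 and Psmb4 by 0.013. The other Psmb1 probe sets were dimmer and differed by 0.73 and 0.0055.

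The 3 catalytic genes did not share a direction. Psmb5, which encodes the chymotrypsin-like site, gave AKR readings of 10.96, 10.68 and 10.75 against 10.97, 10.90 and 10.99 for DBA. The crosses overlapped, and the difference of -0.16 (SE 0.12) turned to 0.099 after quantile normalization. Psmb7, which encodes the trypsin-like site, gave AKR readings of 12.03, 11.67 and 11.88 against 12.18, 12.13 and 12.04 for DBA. Every DBA array lay above every AKR array, by a narrow margin, and the difference was -0.26 (SE 0.13), or -0.045 after quantile normalization.

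Psmb6, which encodes the caspase-like site, went the other way. It gave AKR readings of 10.64, 10.49 and 10.61 against 10.41, 10.24 and 10.41 for DBA, so every AKR array lay above every DBA array. The difference was 0.23 (SE 0.12, adjusted p = 0.244 by limma) as deposited and 0.47 after quantile normalization (unadjusted p = 0.0032 by limma), and it did not pass over all probe sets in either setting.

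Each catalytic subunit has an immunoproteasome counterpart: Psmb8 for Psmb5, Psmb9 for Psmb6 and Psmb10 for Psmb7. Psmb8 gave AKR readings of 9.68, 9.21 and 9.36 against 10.47, 11.65 and 11.21 for DBA. Psmb9 gave AKR readings of 8.68, 8.27 and 8.30 against 9.09, 10.64 and 10.05 for DBA. Psmb10 gave AKR readings of 9.84, 9.44 and 9.62 against 10.01, 10.71 and 10.57 for DBA. None of the 3 overlapped between crosses (against 15.8% of all probe sets lower without overlap). For each of the 3 genes DBA F1 replicate 1 was the lowest DBA array and DBA F1 replicate 2 the highest. Their differences were -1.69, -1.51 and -0.80 (adjusted p = 0.0837, 0.105 and 0.114 by limma), and -1.46, -1.36 and -0.57 after quantile normalization.

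Within each array, the log2 value of the immunoproteasome gene minus that of its constitutive partner gives a ratio that does not depend on the overall level of the array. This ratio was higher in DBA F1 tumours by 1.53 for Psmb8 against Psmb5 (2.90-fold), by 1.74 for Psmb9 against Psmb6 (3.34-fold) and by 0.54 for Psmb10 against Psmb7 (1.45-fold). For Psmb8 against Psmb5 it averaged -1.38 ± 0.10 in AKR F1 against 0.15 ± 0.63 in DBA F1 tumours (SD, n = 3 per cross). For each of the 3 pairs every DBA array lay above every AKR array. In an exact permutation test, two-sided, p was 0.1 (0.1 after Benjamini-Hochberg over the 3 pairs), the smallest that 3 against 3 arrays allow. The ratios were formed after the separation of the immunoproteasome genes had been seen, so this p adds no support to it. For Psmb10 against Psmb7, DBA F1 replicate 1 (-2.16) lay next to the AKR arrays (-2.26 to -2.19). After quantile normalization the 3 shifts were 1.56, 1.83 and 0.52.

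**Figure D3:**
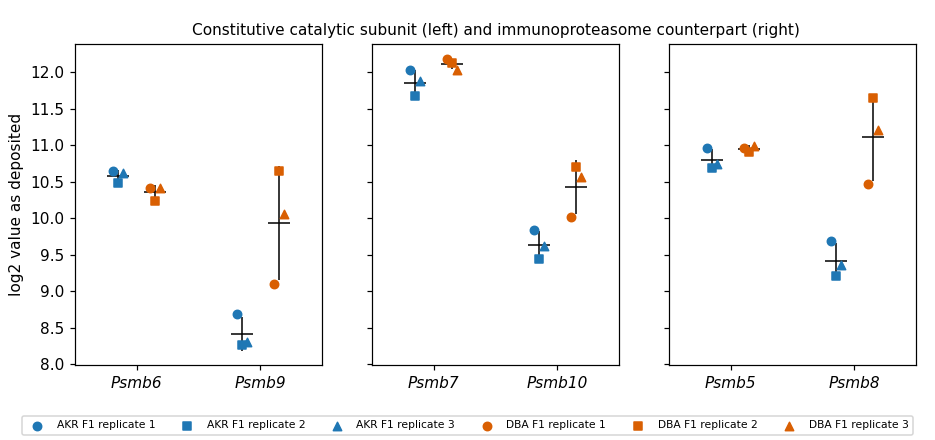
Log2 values as deposited (y axis) of each constitutive catalytic subunit gene and its immunoproteasome counterpart on the 6 arrays, AKR F1 in blue and DBA F1 in orange, with the mean and SD of each cross in black (n = 3). Psmb5, Psmb6 and Psmb7 differ by -0.16, 0.23 and -0.26 (AKR minus DBA; Psmb5 turns to 0.099 after quantile normalization), whereas Psmb8 differs by -1.69, Psmb9 by -1.51 and Psmb10 by -0.80.

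The 6 ATPase genes of the base all lay lower in AKR F1 tumours as deposited (median -0.31), as did 76.2% of the brightest decile. At an unadjusted p under 0.05 there were 2 (33.3%, against 13.2% of all probe sets and 24.6% of the brightest decile). After quantile normalization there was 1 (against 10.7% of all probe sets). Psmc1, whose tail helps to open the gate of the core particle, gave AKR readings of 9.10, 8.48 and 9.02 against 9.53, 9.42 and 9.53 for DBA. AKR F1 replicate 2 stood lowest, and the crosses did not overlap. The difference was -0.63 (SE 0.18, adjusted p = 0.126 by limma), -0.44 without AKR F1 replicate 2 and -0.47 after quantile normalization. A dim further probe set of Psmc1 differed by 0.18.

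The other ATPase genes differed by -0.46 (Psmc6), -0.39 (Psmc3), -0.24 (Psmc4), -0.22 (Psmc2) and -0.065 (Psmc5). After quantile normalization these were -0.21, -0.14, -0.024, 0.027 and 0.19, so that Psmc2 and Psmc5 turned sign. AKR F1 replicate 2 was the lowest array for all 6 ATPase genes. The ATPases form a single ring of 6 different subunits, and their differences ran from -0.63 to -0.065 as deposited.

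The non-ATPase genes of the base lay lower in AKR F1 tumours as deposited. Psmd2 averaged 10.73 ± 0.13 in AKR F1 and 11.08 ± 0.12 in DBA F1 tumours (SD, n = 3 per cross), a difference of -0.35, and of -0.089 after quantile normalization. Psmd1 differed by -0.16 and Psmd4, which encodes a receptor for ubiquitin chains, by -0.15, and both turned sign after quantile normalization, to 0.079 and 0.094. The crosses did not overlap for these 3 genes as deposited (against 15.8% of all probe sets lower without overlap).

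The lid genes lay on both sides. Of 8 genes, 6 lay lower in AKR F1 tumours as deposited and 5 after quantile normalization. At an unadjusted p under 0.05 there were 3 lower as deposited (37.5%, against 13.2% of all probe sets and 24.6% of the brightest decile). After quantile normalization there was 1 (against 10.7% of all probe sets). Psmd7, which encodes the partner of the deubiquitinase in the lid, had the smallest adjusted p of all members. It gave AKR readings of 8.87, 8.34 and 8.75 against 9.18, 9.57 and 9.63 for DBA, with no overlap, and AKR F1 replicate 2 lay lowest. The difference was -0.80 (SE 0.19, 1.75-fold, adjusted p = 0.103 by limma), and -0.65 after quantile normalization. It passed when both AKR F1 replicate 2 and DBA F1 replicate 1 were left out (-0.79, adjusted p = 0.042 by limma), where 2.90% of all probe sets passed. The other Psmd7 probe sets were dimmer and differed by 0.091 and 0.38.

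Psmd6 gave AKR readings of 10.49, 10.12 and 10.39 against 10.99, 10.62 and 11.01 for DBA, a difference of -0.54 (-0.29 after quantile normalization). Psmd12 gave AKR readings of 10.35, 9.99 and 10.33 against 10.80, 10.55 and 10.81 for DBA, a difference of -0.50 (-0.25 after quantile normalization). Both are scaffold genes of the lid, and in both the second replicate was the lowest of each cross. Psmd14, which encodes the deubiquitinase itself, differed by -0.40 with an overlap between crosses, and Psmd8 by -0.33. These were -0.15 and -0.068 after quantile normalization.

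Psmd3, another lid scaffold gene, lay higher in AKR F1 tumours in both settings, by 0.35 (SE 0.18) as deposited and 0.58 after quantile normalization (unadjusted p = 0.0171 by limma). It averaged 10.40 ± 0.14 in AKR F1 and 10.05 ± 0.30 in DBA F1 tumours (SD, n = 3 per cross), and DBA F1 replicate 2 overlapped the AKR arrays at 10.40. Psmd13 differed by 0.025 and by 0.22 after quantile normalization. Psmd11, whose product is known to limit assembly of the complete proteasome, differed by -0.083 and turned to 0.18 after quantile normalization. Its 6 probe sets disagreed, from -0.67 to 0.65, so no direction is given for the gene.

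The Psmd symbols also include chaperones that help to assemble the base and then leave it. Psmd10, known as gankyrin, had the largest difference of all members. It gave AKR readings of 7.76, 6.98 and 7.72 against 8.48, 7.98 and 8.65 for DBA. AKR F1 replicate 2 stood far below the other AKR arrays, and the crosses did not overlap. The difference was -0.88 (SE 0.27, 1.84-fold, adjusted p = 0.13 by limma), -0.63 without AKR F1 replicate 2 and -0.88 after quantile normalization. Psmd5 differed by -0.66 (-0.47 after quantile normalization, -0.41 without AKR F1 replicate 2). Psmd9 differed by 0.054, and by 0.15 after quantile normalization.

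**Figure D4:**
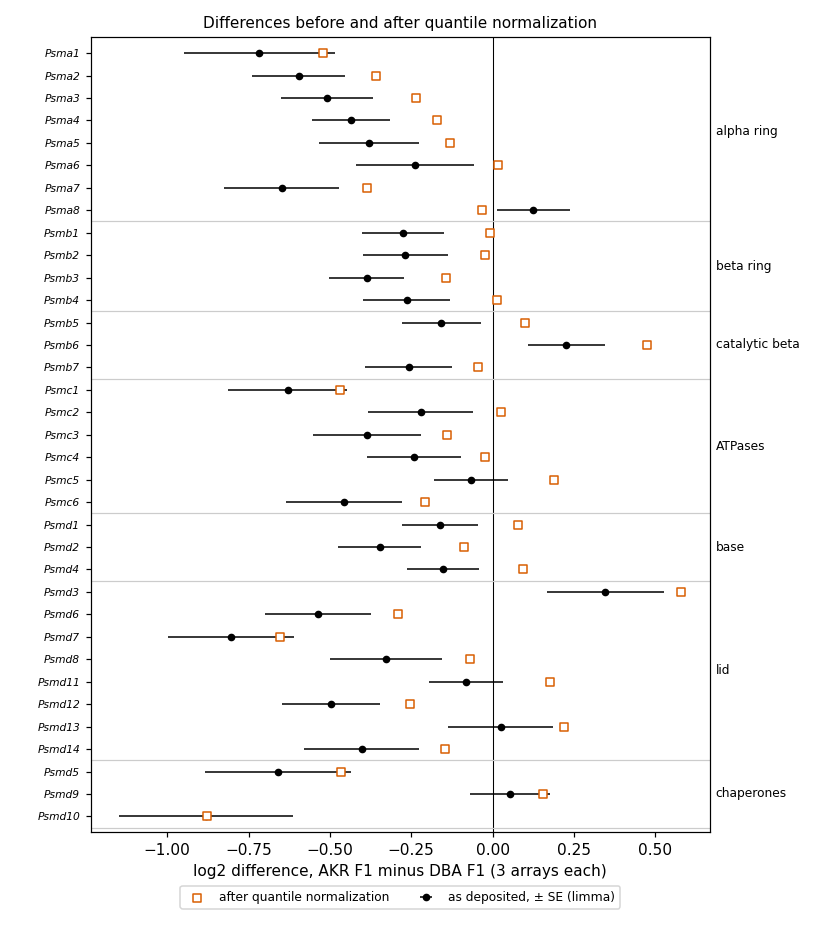
Log2 difference of AKR F1 minus DBA F1 tumours (x axis) for each of the 35 genes, as deposited (black, ± SE by limma) and after quantile normalization (open orange squares). As deposited 30 genes lie below 0, and after quantile normalization 23. After quantile normalization Psma1, Psmc1, Psmd5, Psmd7 and Psmd10 have the lowest values, from -0.88 to -0.47. Dimmer probe sets of Psmc1 and Psmd7, not shown, lie above 0 as deposited.

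Probe sets of a single gene were compared where there were several. Several probe sets were present for 17 of the 35 members, and for 7 of them a dimmer probe set differed in sign from the brightest: Psma5, Psmb1, Psmc1, Psmc2, Psmd4, Psmd7 and Psmd11. With the mean of all probe sets of a gene in place of the brightest, 28 members lay lower in AKR F1 tumours and the median was -0.31. Single members moved more: Psmd7 went from -0.80 to -0.11 and Psmc1 from -0.63 to -0.23, whereas others grew, such as Psmb4 (-0.46) and Psma6 (-0.33). In that setting 12 members lay lower at an unadjusted p under 0.05, of which 10 were among the 15 by the brightest probe set. The share of all probe sets at such a p is not given for it. A strain variant under a probe and a change in RNA level cannot be told apart here.

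Other genes of the pathway were taken from lists of 49 genes, of which 38 had a probe set naming them alone. None passed over all probe sets by limma. At an unadjusted p under 0.05 there were 8 lower in AKR F1 tumours (21.1%, against 13.2% of all probe sets and 24.6% of the brightest decile) and 1 higher (against 12.9%). After quantile normalization there were 6 lower (against 10.7% of all probe sets) and 3 higher (against 11.8%). The median of the 38 was -0.21, or 0.020 after quantile normalization. The assembly chaperones of the core particle (5 measured, median -0.24, or -0.023 after quantile normalization) were led by Psmg2 (-0.38) and Pomp (-0.30), which were -0.21 and -0.046 after quantile normalization. Among factors bound to the proteasome (7 of 7 measured lower in AKR F1 tumours as deposited, 3 of 7 after quantile normalization), Ecpas, a large protein that holds the particles together, differed by -0.74 (SE 0.15, adjusted p = 0.0902 by limma; -0.58 after quantile normalization). The deubiquitinase gene Usp14 differed by -0.37 (-0.14 after quantile normalization), with a further probe set at 0.24.

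Among activators and inhibitors, Psme1, a subunit of the interferon-linked activator, differed by -0.69 (-0.43 after quantile normalization), and Psmf1, which encodes a proteasome inhibitor, by 0.38 (0.56 after quantile normalization). Other probe sets of Psmf1 reached -0.64. Of the p97 unfoldase and its cofactors (8 measured, median -0.14, turning to 0.076 after quantile normalization), Ufd1 differed by -0.44 and Faf1 by -0.28, which were -0.30 and -0.071 after quantile normalization. Of the ubiquitin receptors (5 measured), 0 had an unadjusted p under 0.05 as deposited. Ubqln1 differed by -0.26 (-0.0079 after quantile normalization), with further probe sets from -1.03 to 0.15. Ubqln4 differed by 0.20 (0.39 after quantile normalization, unadjusted p = 0.0138 by limma).

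The regulators of proteasome genes had a median near 0 (6 measured, median -0.047, turning to 0.10 after quantile normalization). Nfe2l1, which encodes the factor that raises proteasome genes when activity is limiting, averaged 10.09 ± 0.18 in AKR F1 and 9.95 ± 0.14 in DBA F1 tumours (SD, n = 3 per cross). Its difference was 0.13 as deposited and 0.36 after quantile normalization, the opposite side from most subunit genes. Nfe2l2, which encodes the oxidative stress factor of the same family, differed by -0.56 (SE 0.25; -0.37 after quantile normalization). Ngly1, whose enzyme processes the Nfe2l1 protein, differed by -0.63 (-0.47 after quantile normalization). Only for Nfe2l2 of these 3 were the crosses separated, and none passed.

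By role, the medians as deposited ran from -0.66 in the base chaperones through -0.47 in the alpha ring, -0.36 in the lid, -0.31 in the ATPases and -0.27 in the structural beta subunits to -0.16 in the catalytic subunits and in the scaffold of the base. After quantile normalization they were -0.47, -0.20, -0.11, -0.082, -0.015, 0.099 and 0.079 in the same order, so the last pair turned sign. Differences between the roles were not tested. Array weights from limma gave AKR F1 replicate 2 a weight of 0.192 and AKR F1 replicate 1 one of 2.81. With these weights 11 members passed, all lower in AKR F1 tumours, where 16.4% of all probe sets passed, in both directions. The share of the brightest decile, where 26 members lay, is not given for this setting.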

How the data were processed

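Deposited values are on the log2 scale, as their range (3.65 to 14.73) shows, for 22690 probe sets on each of 6 arrays. Per the submitters' processing notes MAS5 and RMA were used, and the notes do not say which of them made these log2 values. Without the 64 Affymetrix controls, 22626 probe sets were tested. The platform annotation gave 1 symbol for 20380 of them, several for 691 and none for 1555. Samples were grouped by source name, with replicate numbers in accession order. A two-sided moderated test from limma 3.58.1 (R 4.3.3; lmFit, then eBayes) compared the crosses, with p-values adjusted by the Benjamini-Hochberg method over all 22626 and a threshold of 0.05. It was first tested on simulated data. Differences are AKR minus DBA. The deposited arrays have unequal spread, so a difference can depend on level, and quantile-normalized values are given beside the main ones.

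All members were named. Values on every array are given for the 10 with the smallest p, the catalytic subunits and their counterparts. Of each further list the 2 genes with the smallest p were named, with Nfe2l1 and Nfe2l2. Members and lists were chosen with earlier results of these data known. Ratios within arrays, also under quantile normalization, were added after seeing the data. Figures used matplotlib 3.10.9 in Python 3.11.15. Alternatives were quantile normalization, median centring, a filter on dim probe sets, the average over probe sets of a gene, a trended and robust prior, array weights (gene-by-gene method, since the default did not converge), an adjusted p of 0.10 and leaving out arrays.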

Additional observations from a re-analysis of the deposited data

How the results depend on the processing

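Under quantile normalization the members at an unadjusted p under 0.05 went from 15 to 7 lower and from 0 to 2 higher in AKR F1 tumours, and their median from -0.33 to -0.068. It turned the sign of 9 members: Psma6 (0.016), Psma8 (-0.032), Psmb4 (0.013), Psmb5 (0.099), Psmc2 (0.027), Psmc5 (0.19), Psmd1 (0.079), Psmd4 (0.094) and Psmd11 (0.18). Averaging all probe sets per gene turned Psmb1 (0.16) and Psmd11 (0.14), and left Psmd7, the member with the smallest adjusted p in the main fit, at -0.11. With array weights 11 members were called (against 16.4% of all probe sets, in both directions and at all levels). In that setting 2 members lay higher in AKR F1 tumours at an unadjusted p under 0.05, and the share of all probe sets at such a p is not given. Without both AKR F1 replicate 2 and DBA F1 replicate 1, 1 of 35 members was called (against 2.90% of all probe sets, in both directions). At an adjusted p of 0.10 by limma there were 0 members in the main fit, where the smallest was 0.103. Some refits held members under 0.10, such as Psmb6 after quantile normalization (0.0995) and Psmd7 after median centring (0.0946). The shares of all probe sets at that threshold are not given. Leaving out 1 array at a time gave 0 calls at an adjusted p of 0.05, and medians from -0.37 to -0.21. It gave 7 to 19 members lower and 0 to 1 higher at an unadjusted p under 0.05. The shares of all probe sets at such a p are not given for these refits, so these counts have no background beside them. In these settings Psmd13 ran from -0.077 to 0.17 and Psmd9 from -0.010 to 0.11. Of 35 members, 23 kept their sign in all 13 refits. The cause of these changes was not tested. Signal over background is not known here, so dim members (Psma8) may lie at background. No paired analysis was possible because the labels give the samples no replicate numbers that the crosses share.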
